A study of Mus musculus with 3 samples.

Results

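The interferon module described here holds 38 mouse genes chosen by symbol: interferon-stimulated genes, 8 interferon regulatory factors (IRFs) and Stat2. Of these, 36 had a row in the tables of 37620 Ensembl gene identifiers. Gbp5 and Gbp6 matched no identifier and were not analysed here. The RNA came from primary hepatocytes, the parenchymal cells of the liver, isolated from C57BL/6 mice and labelled passage 1, and mRNA was sequenced. The tested cultures received tauroursodeoxycholic acid (TUDCA), a taurine-conjugated bile acid also used as a chemical chaperone, at a labelled 100 mM for 24 h (2 libraries), and the comparison was a culture given DMSO, the solvent (1 library, no time labelled). All cultures were kept in serum-containing medium with insulin. The sources used here state neither the age of the mice nor which libraries belong to which of the 2 independent experiments that the series mentions. The p-values therefore measure only how far these libraries differ, which may be technical. A difference in culture time cannot be told apart from a difference made by TUDCA.

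Levels are the authors' RPKM (reads scaled to gene length and to the library's total reads), which can be compared between genes. Differences are on the log2(RPKM + 1) scale, TUDCA minus DMSO, and understate the change of low genes. Pairs of TUDCA values are those of replicates 1 and 2. The RPKM values rest on 9757547 and 10575699 reads for TUDCA and 10774289 reads for DMSO. Each test is limma's moderated test across 11300 genes, those averaging 1 RPKM or more, adjusted by Benjamini-Hochberg over all of them with a threshold of 0.05. It has 1 residual degree of freedom, from the TUDCA pair, and takes a spread pooled over genes of similar level, so a gene whose TUDCA libraries differ widely gets a p that is too small. An exact permutation test of 2 libraries against 1 cannot go below p = 0.333 and was not used.

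Interferons are secreted proteins that warn cells of infection. Type I interferons bind the receptor Ifnar1/Ifnar2, the kinases Jak1 and Tyk2 signal to Stat2, and Stat2 joins Irf9 in a complex that binds the interferon-stimulated response element (ISRE) of its target genes. Interferon gamma binds Ifngr1/Ifngr2 and acts through gamma-activated sites (GAS), with Irf1 among the first targets. Irf3 and Irf7 act upstream, where sensors of foreign RNA and DNA turn on the interferon genes. Hepatocytes express this machinery, and Kupffer cells, the macrophages of the liver, share it.

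The promoters of 4 members are shown because each stands for one pattern described below: Irf1 and Irgm2 stood higher with TUDCA, Rsad2 lower, and Isg15 on either side of DMSO. Each line is the 150 bases before the start of the gene on its own strand (RefSeq, GRCm38.p6), with matches to GAAANNGAAA (an ISRE core, either strand) or TTCNNNGAA (a GAS core, which reads the same on both strands) in capitals.
Irf1, chr11:53769864-53770013, + strand: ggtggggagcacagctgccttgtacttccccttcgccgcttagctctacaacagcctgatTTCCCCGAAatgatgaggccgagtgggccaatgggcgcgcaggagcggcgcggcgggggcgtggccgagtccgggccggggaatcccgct
Rsad2, chr12:26456453-26456602, - strand: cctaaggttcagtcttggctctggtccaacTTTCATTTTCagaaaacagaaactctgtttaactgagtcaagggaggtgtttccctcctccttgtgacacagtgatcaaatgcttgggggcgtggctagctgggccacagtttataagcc
Isg15, chr4:156200819-156200968, - strand: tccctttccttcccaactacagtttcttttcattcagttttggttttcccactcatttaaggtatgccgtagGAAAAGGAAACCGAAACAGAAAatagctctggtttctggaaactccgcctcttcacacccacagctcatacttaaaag
Irgm2, chr11:58214827-58214976, + strand: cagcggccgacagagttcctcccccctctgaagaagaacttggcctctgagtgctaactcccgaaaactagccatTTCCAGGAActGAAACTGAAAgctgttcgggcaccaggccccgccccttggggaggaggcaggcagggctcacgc

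Irf1 carried a GAS core and no ISRE core, Rsad2 a single ISRE core on the opposite strand, Isg15 a run of 3 overlapping ISRE cores, and Irgm2 a GAS core directly before an ISRE core. For Irf1 another start is listed, and its bases, which held no match to either core, are not shown. A stretch just after the Irgm2 start was found in no annotated transcript of the gene on either strand. For the starts shown of Irf1, Rsad2 and Isg15 it was found, so the Irgm2 start is less certain. Windows of 300 bases (250 before to 50 after the start) were at hand for 29 members. Of these, 16 held an ISRE core (55.2%), against 3.99% of the 27025 mouse genes with a window, and 10 held a GAS core (34.5%, against 9.55%). All 7 GTPase genes with a window (Gbp5 among them) held an ISRE core, against 2 of the 9 transcription factor genes. Among members tested, the median log2 fold change was 0.22 for the 15 with an ISRE core and 0.18 for the 12 without one in the window. For the GAS core the order was the other way, with 0.16 for the 9 with one and 0.31 for the 18 without. A match describes the letters of the window and is not a binding site.

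Of the 36 genes in the tables, 34 passed the filter on level, and none of them passed the limma test with TUDCA in either direction, against 2.65% of all genes tested (1.77% higher and 0.876% lower). At an unadjusted p below 0.05, 8 members stood higher (6.58% of all genes did) and 1 lower (4.19% of all genes). Voom on the reads recovered from the RPKM values called 1 member, Iigp1, and 267 of all 11300 genes tested. No member differed 2-fold from DMSO in both TUDCA libraries, in either direction, against 0.77% of all genes on the higher and 0.283% on the lower side. Both TUDCA libraries lay above DMSO for 23 of the 34 members (40.5% of all genes), both below for 2 (30.4% of all genes), and the libraries lay on either side of DMSO for 9. The median log2 fold change of the 34 was 0.25, against 0.04 over all genes tested, and 30 had a positive value (55.9% of all genes). The count was 28 with quantile normalization (48.5% of all genes), 27 with median centring (45.0%) and 27 with a correction for gene length (49.5%). Both differences share the single DMSO library, so their agreement in sign is no separate evidence. In these bulk libraries, fewer cells of a type and less RNA per cell cannot be told apart.

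**Figure D1:**
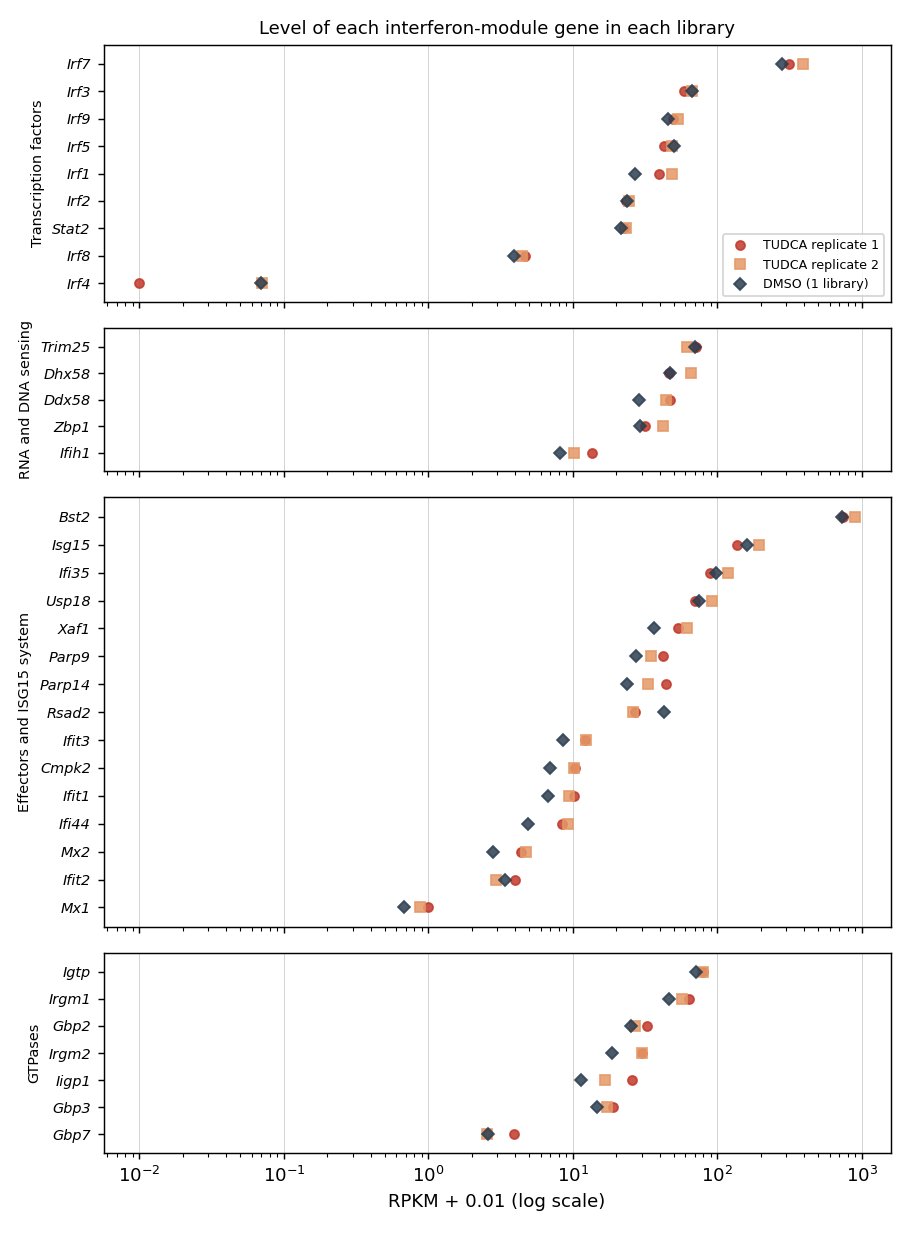
RPKM of each of the 36 genes in each library on a log axis (0.01 added so that a value of 0 can be drawn), by role and ordered by mean level. Points are single libraries without error bars. Bst2 is at the top with 736 and 893 RPKM with TUDCA and 731 in DMSO, Rsad2 is the tested gene whose TUDCA points lie farthest left of DMSO, and for Irf1, Ifi44, Xaf1 and Irgm2 both TUDCA points lie to the right.

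As means over the 3 libraries, the levels of the tested members ran between 3.01 RPKM (Gbp7) and 787 RPKM (Bst2). Among them, 11 averaged over 50 RPKM, 16 between 10 and 50, and 7 under 10. The members below the filter were Irf4, a factor of lymphocytes and some myeloid cells, with 0 and 0.0602 RPKM with TUDCA and 0.0591 in DMSO (0 and 3 reads against 3), and Mx1 with 0.981 and 0.860 RPKM with TUDCA and 0.666 in DMSO. Mx1 encodes a dynamin-like antiviral GTPase whose allele is defective in C57BL/6 mice.

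Among the transcription factors, Irf1 stood out and the subunits of the type I interferon complex did not. Irf1, an activator that interferon gamma induces early, had 39.7 and 48.5 RPKM with TUDCA and 27.1 RPKM in DMSO, so that both TUDCA libraries lay above. Its log2 fold change was 0.67 ± 0.23 (SE) and did not pass (limma adjusted p = 0.104, unadjusted p = 0.00375). Its exons overlap Gm17334 on the other strand, and reads of the pair cannot be told apart. Irf7, which drives later interferon production and was the most abundant factor, had 316 and 393 RPKM with TUDCA and 279 RPKM in DMSO (log2 fold change 0.34 ± 0.20, limma adjusted p = 0.594). The replicate 1 value of Irf7 was close to DMSO, with a log2 difference of 0.18, and replicate 2 stood at 0.50.

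Irf9, the DNA-binding subunit of that complex, had 49.6 and 53.7 RPKM with TUDCA and 45.6 RPKM in DMSO. Stat2 had 22.5 and 23.3 RPKM with TUDCA and 21.6 RPKM in DMSO. Irf3, the constitutive factor downstream of the sensors, had 58.5 and 66.9 RPKM with TUDCA and 66.3 RPKM in DMSO. In all of these the log2 fold change was smaller than its SE, and the value of Irf3 in TUDCA replicate 2 was nearly that of DMSO.

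Irf2, which competes with Irf1 for its sites and mostly represses, had 23.4 and 24.3 RPKM with TUDCA and 23.7 RPKM in DMSO. Irf5, a factor of Toll-like receptor signalling in macrophages, had 42.8 and 48.9 RPKM with TUDCA and 49.9 RPKM in DMSO, both TUDCA values lying below. Irf8, which myeloid development requires, had 4.69 and 4.44 RPKM with TUDCA and 3.89 RPKM in DMSO, on 66 to 74 reads. The 8 factors tested had a median log2 fold change of 0.13, and the limma adjusted p of the 7 other than Irf1 was 0.594 or more.

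Of the sensing genes, those of the RNA helicases RIG-I and MDA5 and of the sensor ZBP1 lay above DMSO in both TUDCA libraries, and those of LGP2 and TRIM25 lay on either side of it. Ddx58, which encodes RIG-I, had 46.7 and 44.4 RPKM with TUDCA and 28.6 RPKM in DMSO (log2 fold change 0.65 ± 0.23, limma adjusted p = 0.124, unadjusted p = 0.00497). Ifih1, which encodes MDA5, had 13.5 and 10.2 RPKM with TUDCA and 8.11 RPKM in DMSO (log2 fold change 0.48 ± 0.27, limma adjusted p = 0.574). The groups did not overlap for either gene, but for Ifih1 the TUDCA libraries stood at log2 differences of 0.67 and 0.29.

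Dhx58, which encodes LGP2, a helicase relative without signalling domains, had 46.0 and 65.4 RPKM with TUDCA and 46.9 RPKM in DMSO. Zbp1, a sensor of Z-form nucleic acid that can trigger necroptosis, had 31.3 and 42.3 RPKM with TUDCA and 29.2 RPKM in DMSO. In both genes replicate 2 was high and replicate 1 close to DMSO. Trim25, a ubiquitin ligase that activates RIG-I, had 70.8 and 61.4 RPKM with TUDCA and 70.2 RPKM in DMSO. The 5 sensing genes had a median log2 fold change of 0.31.

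The 14 effector genes tested split into 8 with a log2 fold change of 0.47 or more, 5 close to DMSO (0.02 to 0.15), and Rsad2 below it. Ifi44, an interferon-induced gene, had 8.40 and 9.19 RPKM with TUDCA and 4.91 RPKM in DMSO (log2 fold change 0.73 ± 0.29, limma adjusted p = 0.202, unadjusted p = 0.0110). Xaf1, which encodes an antagonist of the apoptosis inhibitor XIAP, had 53.4 and 61.5 RPKM with TUDCA and 36.3 RPKM in DMSO (log2 fold change 0.64 ± 0.23, limma adjusted p = 0.113, unadjusted p = 0.00428). For both genes the gap to DMSO was larger than that within the TUDCA pair.

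The macrodomain proteins Parp14 and Parp9 belong to the ADP-ribosyltransferase family. Parp14 had 44.3 and 33.2 RPKM with TUDCA and 23.6 RPKM in DMSO (log2 fold change 0.68 ± 0.24, limma adjusted p = 0.108, unadjusted p = 0.00399). Parp9 had 42.1 and 35.0 RPKM with TUDCA and 27.5 RPKM in DMSO (log2 fold change 0.47 ± 0.23, limma adjusted p = 0.455, unadjusted p = 0.0473). Replicate 1 was the higher TUDCA library in both.

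Of the Ifit proteins, Ifit1 binds viral RNA that lacks the marks of host mRNA. Ifit1 had 10.1 and 9.43 RPKM with TUDCA and 6.71 RPKM in DMSO, and Ifit3 had 12.1 and 12.4 RPKM with TUDCA and 8.56 RPKM in DMSO. Ifit2 had 3.99 and 2.93 RPKM with TUDCA and 3.37 RPKM in DMSO, on 70 to 88 reads. Ifit1 and Ifit3 lay above DMSO in both libraries, while Ifit2 overlapped it. Mx2, a relative of Mx1, had 4.37 and 4.73 RPKM with TUDCA and 2.80 RPKM in DMSO, on 73 to 121 reads.

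Isg15, a ubiquitin-like modifier, had 137 and 193 RPKM with TUDCA and 159 RPKM in DMSO, so that the libraries lay on either side of it. Usp18, the protease that removes ISG15 and dampens signalling at the type I receptor, had 69.8 and 91.4 RPKM with TUDCA and 74.7 RPKM in DMSO. Ifi35 had 89.1 and 118 RPKM with TUDCA and 97.4 RPKM in DMSO, and Bst2, which encodes the virion-tethering protein tetherin, had 736 and 893 RPKM with TUDCA and 731 RPKM in DMSO. In these 4 genes the gap between the TUDCA libraries was wider than the mean difference from DMSO, which was between 0.03 and 0.15 on the log2 scale (for Isg15, median centring turned the sign).

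Rsad2 and Cmpk2 are neighbouring genes with no other gene listed between them in RefSeq, and they differed from DMSO in opposite directions. This pair was chosen after its values were seen. Rsad2, which encodes viperin, a radical SAM enzyme that makes a chain-terminating nucleotide, had 26.8 and 25.9 RPKM with TUDCA and 42.7 RPKM in DMSO, on 824 and 863 reads with TUDCA and 1446 reads in DMSO. Cmpk2, a mitochondrial nucleotide kinase, had 10.4 and 10.3 RPKM with TUDCA and 6.94 RPKM in DMSO. The ratio of Rsad2 to Cmpk2 RPKM was 2.59 and 2.53 with TUDCA and 6.15 in DMSO, with little difference between the TUDCA libraries.

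The log2 fold change was -0.67 ± 0.24 for Rsad2 (limma adjusted p = 0.120, unadjusted p = 0.00466) and 0.51 ± 0.28 for Cmpk2 (limma adjusted p = 0.528). Rsad2 passed only with the correction for gene length, an alternative added after seeing the data (limma adjusted p = 0.0455, with 0.0785 to 0.509 under the other alternatives). It was the only member with both TUDCA libraries more than 0.5 log2 units below DMSO.

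**Figure D2:**
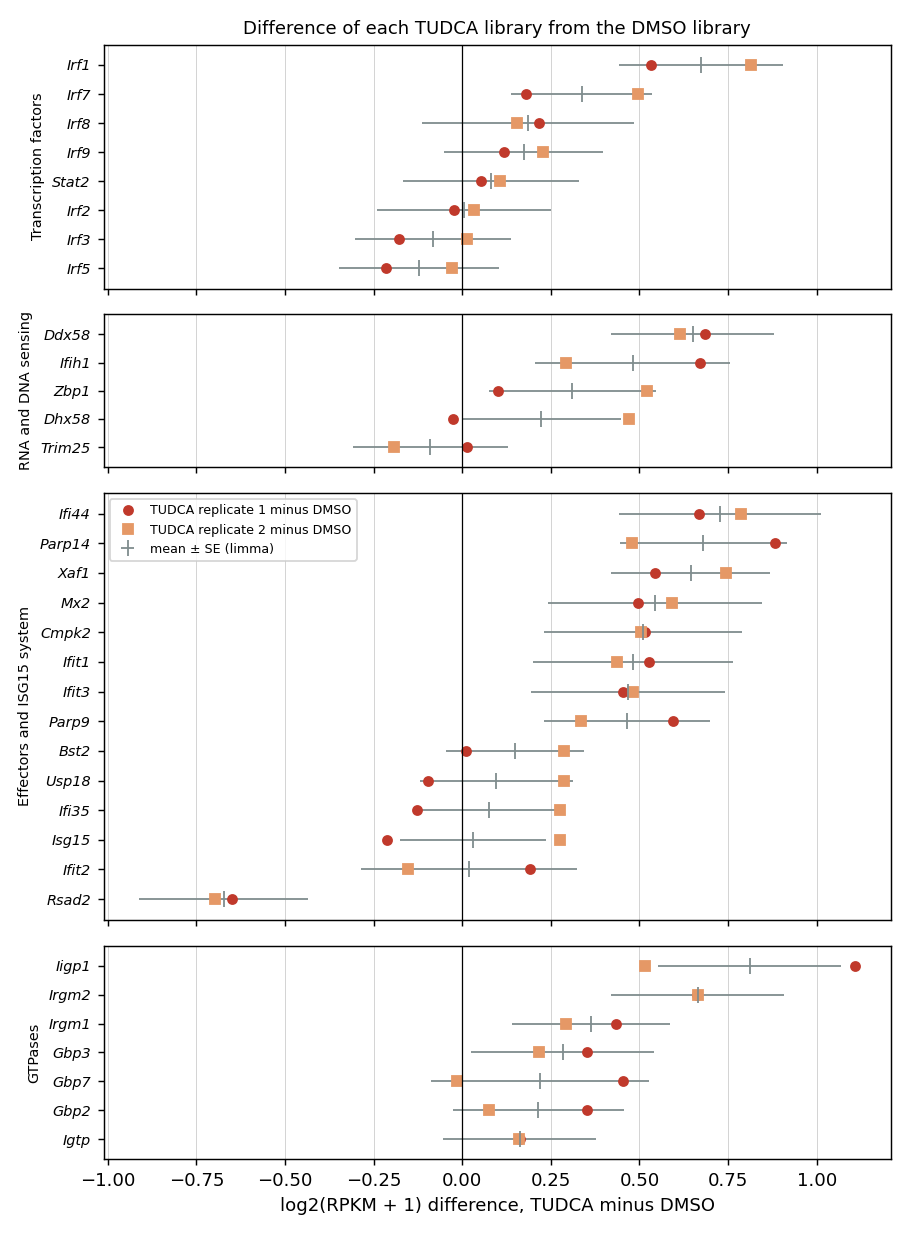
log2(RPKM + 1) difference of each TUDCA library from the DMSO library for the 34 genes tested, by role. Points are the TUDCA replicates, and the grey tick and bar give the mean and its SE from limma (n = 2 against 1). Iigp1 has the largest mean difference (0.81) and Rsad2 the lowest (-0.67), and Isg15, Usp18 and Ifi35 have a point on each side of 0.

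The interferon-inducible GTPases attack the vacuoles of intracellular pathogens. All 7 that were tested had a positive fold change (55.9% of all genes did), with a median of 0.28. Of the 7, 6 lay above DMSO in both libraries (40.5% of all genes). Iigp1, an effector of the immunity-related GTPase (IRG) family, had 25.6 and 16.7 RPKM with TUDCA and 11.4 RPKM in DMSO. Its log2 fold change was 0.81 ± 0.26, the largest of the module, and did not pass (limma adjusted p = 0.0579, unadjusted p = 0.00164). It passed with a pseudocount of 0.1 and with voom on the recovered reads (limma adjusted p = 0.0467 and 0.0447, with 0.0527 to 0.640 under the other alternatives). The TUDCA libraries differed, with log2 differences from DMSO of 1.11 and 0.51.

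Irgm2, Irgm1 and Igtp belong to the regulatory IRG proteins that hold effectors such as Iigp1 in check on host membranes. Irgm2 had 30.0 and 30.0 RPKM with TUDCA and 18.6 RPKM in DMSO, so the TUDCA values coincided (log2 fold change 0.66 ± 0.24, limma adjusted p = 0.147, unadjusted p = 0.00637). Irgm1 had 63.3 and 57.3 RPKM with TUDCA and 46.6 RPKM in DMSO (log2 fold change 0.36 ± 0.22, limma adjusted p = 0.625). Igtp had 79.5 and 79.4 RPKM with TUDCA and 70.9 RPKM in DMSO (log2 fold change 0.16 ± 0.22, limma adjusted p = 0.904). Exons of Irgm2 and Igtp overlap in the GENCODE annotation, so their reads may be shared out wrongly.

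The 3 guanylate-binding protein genes tested had log2 fold changes of 0.21 to 0.28. Gbp2 had 32.7 and 26.8 RPKM with TUDCA and 25.4 RPKM in DMSO, Gbp3 had 19.1 and 17.3 RPKM with TUDCA and 14.8 RPKM in DMSO, and Gbp7 had 3.90 and 2.54 RPKM with TUDCA and 2.58 RPKM in DMSO. Replicate 1 was the higher TUDCA library in each. The Gbp, Ifit and IRG families hold close paralogs, so the reads of their members may be split unevenly.

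The TUDCA libraries differed from each other in a way that followed gene length, and the module showed it too. For the 4 members up to 1000 nt by the recovered length (Bst2, Isg15, Usp18 and Irf5) the median difference of replicate 2 minus replicate 1 was 0.33, and over all 2296 genes of that class it was 0.09. Over the 513 genes longer than 5000 nt the median was -0.22, and Gbp7, the member in that class, had -0.47. Spearman's rho between length and that difference was -0.59 across the 34 members and -0.25 across all 11300 genes, where genes share the same 2 libraries and are not independent replicates. Replicate 1 itself followed length against DMSO, with class medians of -0.05 for the shortest and 0.19 for the longest genes, while replicate 2 had 0.02 and -0.01. Recovered lengths are the smallest that give whole reads, so a gene may be a multiple longer. The part of length in the values of single members was not tested.

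**Figure D3:**
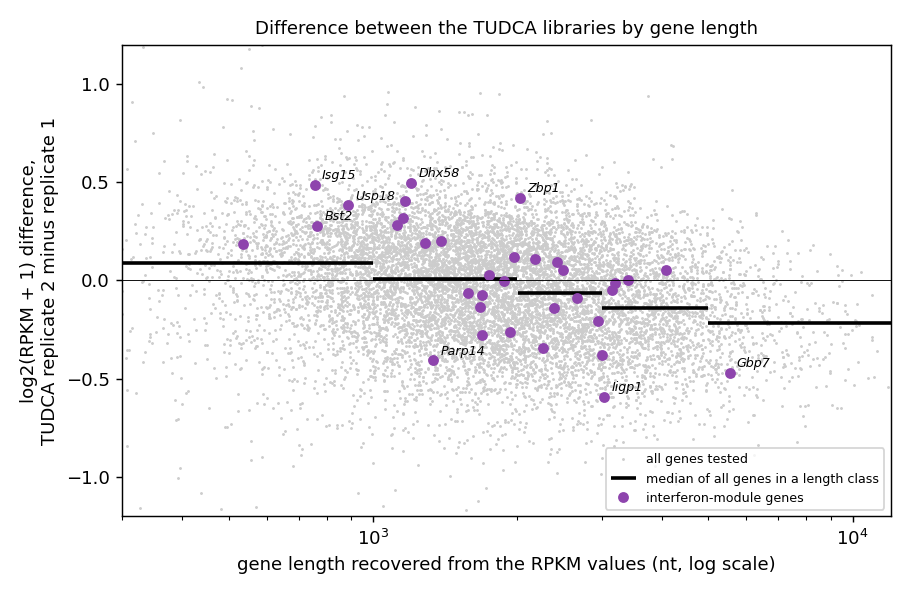
Difference of TUDCA replicate 2 minus replicate 1 in log2(RPKM + 1) against gene length (log axis) for all genes tested (grey) and the 34 module genes (purple), with black bars for the median of all genes in each length class. Isg15, Usp18, Bst2 and Dhx58 lie above 0 and Gbp7 and Iigp1 below it; 219 genes fall outside the axes.

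Upstream of the module, no interferon transcript was abundant, and most receptor chains were expressed without passing the test. Ifnb1, Ifna2, Ifna4, Ifng and Ifnl3 were listed at 0 in all libraries. Of the interferon and receptor genes 5 of 13 passed the filter, all of them receptor chains. None of the 5 passed the limma test (2.65% of all genes did), and 0 passed by voom. At an unadjusted p below 0.05 there was 1 (10.8% of all genes). Ifngr1, the ligand-binding chain for interferon gamma, had 121 and 83.9 RPKM with TUDCA and 67.2 RPKM in DMSO (log2 fold change 0.58 ± 0.21, limma adjusted p = 0.150). Its partner Ifngr2 had 48.1 and 47.5 RPKM with TUDCA and 44.1 RPKM in DMSO. Ifnar2 had 49.1 and 53.6 RPKM with TUDCA and 37.9 RPKM in DMSO, and Ifnar1 had 43.8 and 40.9 RPKM with TUDCA and 39.8 RPKM in DMSO. Il10rb, shared by the receptors for interferon lambda and interleukin 10, had 16.7 and 18.8 RPKM with TUDCA and 14.8 RPKM in DMSO. Ifnlr1, the other chain of the interferon lambda receptor, did not pass the filter on level. No untested gene of the list exceeded 0.837 RPKM in any library.

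None of the 12 genes of JAK-STAT signalling and its inhibitors passed the limma test either, and 0 passed by voom. At an unadjusted p below 0.05 there were 2 (10.8% of all genes). Jak2, a kinase of the gamma receptor, had 5.75 and 4.06 RPKM with TUDCA and 2.90 RPKM in DMSO. Jak1 had 184 and 144 RPKM with TUDCA and 167 RPKM in DMSO, and Tyk2 had 12.7 and 15.4 RPKM with TUDCA and 12.3 RPKM in DMSO. The phosphatase gene Ptpn6 had 20.03 and 27.6 RPKM with TUDCA and 16.3 RPKM in DMSO. Of the feedback inhibitors, Socs3 had 14.5 and 13.0 RPKM with TUDCA and 9.91 RPKM in DMSO, and Socs1 had 1.51 and 1.01 RPKM with TUDCA and 0.989 RPKM in DMSO.

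Of 11 sensors and adaptors tested upstream of interferon, none passed, and 0 passed by voom. At an unadjusted p below 0.05 there was 1 (10.8% of all genes). Ikbke, a kinase that activates Irf3 and Irf7, had 61.6 and 76.1 RPKM with TUDCA and 46.9 RPKM in DMSO (log2 fold change 0.54 ± 0.22, limma adjusted p = 0.248). Ticam1, the adaptor of Toll-like receptor 3, had 6.85 and 7.71 RPKM with TUDCA and 10.3 RPKM in DMSO, while the receptor gene Tlr3 had 2.55 and 2.49 RPKM with TUDCA and 1.95 RPKM in DMSO. Myd88, the adaptor of most other Toll-like receptors, had 34.6 and 36.3 RPKM with TUDCA and 41.4 RPKM in DMSO. Both adaptors lay below DMSO in both libraries. None of the IRF cofactor genes passed (Irf2bp2, the one farthest from DMSO, had 8.33 and 10.1 RPKM with TUDCA and 6.76 RPKM in DMSO).

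Among 47 further interferon-stimulated genes tested, 1 passed higher (1.77% of all genes), 1 lower (0.876% of all genes) and 45 did not pass. Oasl1, an oligoadenylate synthetase-like protein, fell to 110 and 125 RPKM with TUDCA, against 261 RPKM in DMSO (log2 fold change -1.15 ± 0.21, limma adjusted p = 4.9e-06). Oasl2 rose to 35.9 and 43.1 RPKM with TUDCA, against 22.0 RPKM in DMSO (log2 fold change 0.81 ± 0.24, limma adjusted p = 0.0281). Oasl2 missed the threshold with voom, quantile normalization and median centring (limma adjusted p = 0.0573, 0.0814 and 0.115), and both genes missed it without the filter on level (0.560 for Oasl2 and 0.502 for Oasl1). The GTPase gene Tgtp1 had 6.68 and 6.38 RPKM with TUDCA and 3.38 RPKM in DMSO, and Parp11 had 5.85 and 4.87 RPKM with TUDCA and 2.78 RPKM in DMSO (limma adjusted p = 0.166 and 0.219). In this list 30 genes lay above DMSO in both libraries (40.5% of all genes) and 3 below (30.4% of all genes). The median log2 fold change of the list was 0.24.

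**Figure D4:**
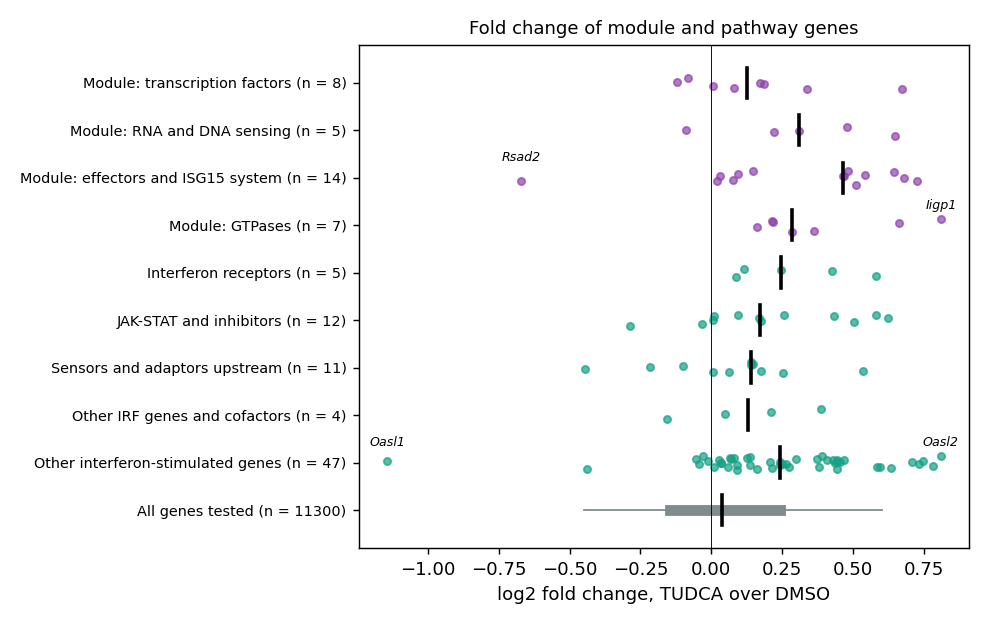
log2 fold change of TUDCA over DMSO for the tested genes of each role of the module (purple) and of each pathway list (green), with the median as a black bar. The bottom row gives the 5th to 95th percentile (line), the quartiles (box) and the median of all 11300 genes. Medians lie between 0.13 and 0.47 for the lists, against 0.04 for all genes, with Oasl1 at -1.15 and Rsad2 at -0.67 apart from the rest.

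The identity of the cells was checked by marker genes. All 6 hepatocyte markers were expressed, summing to 10979 and 9906 RPKM with TUDCA and 9410 RPKM in DMSO. Their median log2 fold change was 0.38, above the 0.25 of the module. Of the 6, 5 lay above DMSO in both libraries (40.5% of all genes) and 1 below (30.4% of all genes). At an unadjusted p below 0.05, 3 stood higher (6.58% of all genes). Hnf4a, a transcription factor of hepatocyte identity, rose to 199 and 191 RPKM with TUDCA, against 115 RPKM in DMSO (log2 fold change 0.76 ± 0.21, limma adjusted p = 0.0123, and 0.153 with median centring and 0.502 without the filter). The part of these hepatocyte transcripts in the values of the module was not tested. Macrophage and Kupffer cell markers were present as well, all 12 of them above 0, with a summed level of 689.9 and 765.6 RPKM with TUDCA and 644.9 RPKM in DMSO, of which Cd14 and Cd68 made up the larger share. The 11 tested had a median log2 fold change of 0.20. Of these, 6 lay above DMSO in both libraries (40.5% of all genes) and 4 below (30.4% of all genes). The pan-leukocyte marker Ptprc had 0.896 and 0.510 RPKM with TUDCA and 0.466 RPKM in DMSO. Of the 8 markers of lymphocytes and plasmacytoid dendritic cells, Ms4a1, Cd3e, Cd3g and Klrb1c were at 0 in all libraries, and the sum was 0.141 and 0.301 RPKM with TUDCA and 0.177 RPKM in DMSO. The 8 markers of dendritic cells and neutrophils summed to 17.7 and 11.6 RPKM with TUDCA and 11.6 RPKM in DMSO, the 8 of sinusoidal endothelium to 19.9 and 19.5 RPKM with TUDCA and 24.4 RPKM in DMSO, and the 6 of stellate cells to 5.60 and 5.08 RPKM with TUDCA and 6.35 RPKM in DMSO. The part of macrophage RNA in the values of Irf5, Irf8, Zbp1 and other members that macrophages also express was not tested.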

How the data were processed

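The authors deposited RPKM values, 1 table per library. Per the submitters' processing notes, TopHat2 2.0.7, HTSeq, Bowtie2 and CASAVA were used, with no role or order stated. Their genome build, annotation and strand setting: not given in the sources used here. Exons of 14 members overlap those of another gene in GENCODE M21, 9 of them on the opposite strand, and such reads cannot be told apart (Irf7 with Phrf1 and Dhx58 with Dhx58os are examples). Symbols came from GENCODE M21 (32897 of 37620 identifiers matched; 188 of 193 list genes, 2 through an older symbol). Members, gene lists and tests were chosen with earlier results of these data known. Named genes outside the module are, per list, those called, up to 4 with the largest fold change, and 8 fixed signalling genes.

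Values were tested as log2(RPKM + 1) with limma 3.58.1 in R 4.3.3 (lmFit, eBayes with trend), checked on simulated data. The prior degrees of freedom came out infinite, which gives every gene the common spread at its level (SD 0.159 to 0.265). DMSO, with 1 library, is taken to vary as the TUDCA pair does. Reads and lengths are the smallest whole numbers, within 1e-06 reads, that give the RPKM values. They sum to 95.7 to 95.8% of the library totals, and a gene may hold a multiple. Alternatives were another pseudocount, other filters, 2 normalizations, robust estimation, voom, each TUDCA library left out and, added after seeing the data, a loess correction for gene length. Promoter sequences are from RefSeq (GRCm38.p6). Some genes of the lists are counted but not reported here by name.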

Additional observations from a re-analysis of the deposited data

How the results depend on the processing

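The count of all genes called (299) was 0 without the filter on level (1696 at an unadjusted p below 0.05) and stayed within 1.5 times otherwise. The count of members called (0) was 1 with a pseudocount of 0.1 and 1 with voom (Iigp1 in both), and 1 with the length correction (Rsad2). Over all genes tested, these settings called 327, 267 and 338 in that order. The count of members called could not be computed with a TUDCA library left out, which leaves 1 library a group and no test. No member passed the 2-fold rule in both libraries, and without TUDCA replicate 1 the count was 0 and without TUDCA replicate 2 it was 1 (Iigp1). The median log2 fold change of the members (0.25) was 0.29 with a pseudocount of 0.1, 0.22 without the filter, 0.30 at a filter of 5 RPKM, 0.23 with quantile normalization, 0.18 with median centring, 0.23 with the length correction and 0.29 with voom, and it was 0.28 to 0.29 with one TUDCA library left out. The sign turned for 4 members close to 0: Irf2 (-0.036 with quantile normalization, -0.069 with median centring and -0.062 with the length correction), Ifit2 (-0.11, -0.055 and -0.041 in that order), Isg15 (-0.044 with median centring) and Stat2 (-0.0053 with the length correction). Median centring moves every gene by the same amount, so the sign turned there for members closest to 0. The cause of the other shifts was not tested. All other members kept their sign and, apart from Iigp1 and Rsad2 above, their side of the threshold in the alternatives with a test. No paired analysis was possible because DMSO has 1 library. Irf8, Ifit2 and Mx2 had fewer than 100 reads in at least 1 library, which limits what could be detected for them.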
